A study of Mus musculus with 12 samples.

Results

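Transcripts of cholesterol and fatty acid synthesis were followed in mouse NIH3T3 cells, an established fibroblast line, at different cell densities and with different Tead and Yap vectors. The set was a list of 37 genes matched by symbol to the annotation of the arrays, and each gene was represented by its probe set with the highest mean over all arrays. Of these genes 36 were measured, out of 18194 genes in all; Acat2, which joins acetyl-CoA units at the head of the mevalonate pathway, was not analysed here. The sterol branch held 17 measured genes (6 of the mevalonate steps, 11 of the squalene and sterol steps), the fatty acid branch held 12 (3 that supply or activate acetyl and acetoacetyl units, 9 that build, lengthen or desaturate fatty acids), and 7 were regulators and transporters.

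Animal cells build cholesterol and fatty acids from acetyl-CoA in the cytosol. The enzymes of both pathways are controlled by the SREBP transcription factors, membrane proteins that Scap escorts from the endoplasmic reticulum to be cut and released when sterols are low, and that Insig proteins hold back when sterols are plentiful. Growing fibroblasts need both products for new membrane, and surplus cholesterol is exported by transporters that oxysterols induce through LXR nuclear receptors.

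The study asked how cell density, Yap and Tead2 shape transcript levels. All cells were infected with virus. Control cells carried the empty control vector and were harvested at 30% confluency (low density) or at complete confluency; cells with Tead2-EnR, a fusion of the Tead2 DNA-binding factor to the Engrailed repressor domain, were harvested at 30% of their own confluency; cells with Yap, the coactivator of Tead factors, or with Tead2-VP16, a fusion to a viral activation domain, were harvested while proliferating at a density a little beyond that at which normal cells are confluent (called high density here); and Tead2-VP16 cells were also harvested at complete confluency. Each of the 6 groups had 2 arrays, for which the labels name no separate cultures; p-values therefore reflect the spread between these arrays alone, which may be technical.

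Values are log2 of the deposited intensities, and changes are log2 fold changes from limma unless another scale is named; genes with an adjusted p below 0.05 were called. Median intensity lay between 51.91 and 53.72 on the 12 arrays, the median gene was at 6.87 on the log2 scale, and the 2 arrays of each group had a correlation over all genes of 0.9976 to 0.9986. All 6 fibroblast markers were measured and their summed linear intensity was at least 48726 on every array, whereas the sums of 5 macrophage, 4 epithelial and 4 hepatocyte markers did not exceed 639, 464 and 199. The probe set of Tead2 lay at 9.82 and 9.84 with Tead2-EnR, against 9.62 and 9.63 in low-density control. It lay between 9.23 and 9.41 with Tead2-VP16 at high density. With Tead2-VP16 at complete confluency it was at 9.76, against 9.87 and 9.90 in confluent control. The brighter probe set of Yap1 lay between 9.62 and 9.69 in Yap cells and between 9.79 and 9.98 in control cells. Whether these probe sets read the vectors' transcripts is not known, so they check nothing about the labels.

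The density step in control cells came first: confluent minus low density, with the same vector. Transcripts of sterol synthesis were lower in confluent cells for most genes: 16 of the 17 measured fell and 1 rose, with a median change of -1.08 and a range from -2.52 to 1.40. Over all 36 members 26 fell and 8 rose (median -0.67). The background was high, since 48.9% of all genes tested were called in this step, 22.8% lower and 26.1% higher, with a median of -0.01. In these bulk samples, fewer cells of a type and less RNA per cell cannot be told apart.

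Among the mevalonate steps, which turn acetyl units into the isoprene building block, the widest spread was that of Idi1, the isomerase of isopentenyl diphosphate. Its log2 intensity was 11.77 and 11.82 on the low-density control arrays, 11.49 and 11.58 with Tead2-EnR, 11.12 and 11.13 with Yap, 10.82 and 10.94 with Tead2-VP16 at high density, 9.48 and 9.43 with Tead2-VP16 at complete confluency, and 9.21 and 9.34 in confluent control. The groups did not overlap, and both completely confluent groups lay more than 1 log2 unit below all the others. Lack of overlap between 2 groups was common among the 18194 genes. Both confluent control arrays lay above both low-density control arrays for 6411 genes and below them for 6382. For Tead2-EnR against low-density control these numbers were 5769 and 5897. Most enzymes shown by array were also chosen for a wide range of group means, which favours such gaps. The fall with density was 5.72-fold (-2.52, SE 0.066, limma adjusted p = 1.5e-09).

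Fdps, which joins these units into farnesyl diphosphate, showed the same division into high and low arrays. It read 12.05 and 12.05 in low-density control, at most 12.01 with Tead2-EnR, 11.80 and 11.86 with Yap, 11.55 and 11.48 with Tead2-VP16 at high density, 10.22 and 10.28 with Tead2-VP16 at confluency and 10.24 and 10.35 in confluent control. The last 2 groups overlapped each other and no other group. Its fall with density was 3.37-fold (-1.75, SE 0.058, limma adjusted p = 5.7e-09); the other probe set of Fdps was at -0.11 and not called, and the mean of both gave -0.93.

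The remaining mevalonate genes fell less and within a narrow range. Hmgcs1, the synthase that makes hydroxymethylglutaryl-CoA, was at -0.87, and the kinases Mvk and Pmvk, which phosphorylate mevalonate in turn, were at -1.04 and -0.77. Mvd, the decarboxylase that follows them, was at -1.12. All 4 passed the test, with adjusted p of at most 7e-06.

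**Figure D1:**
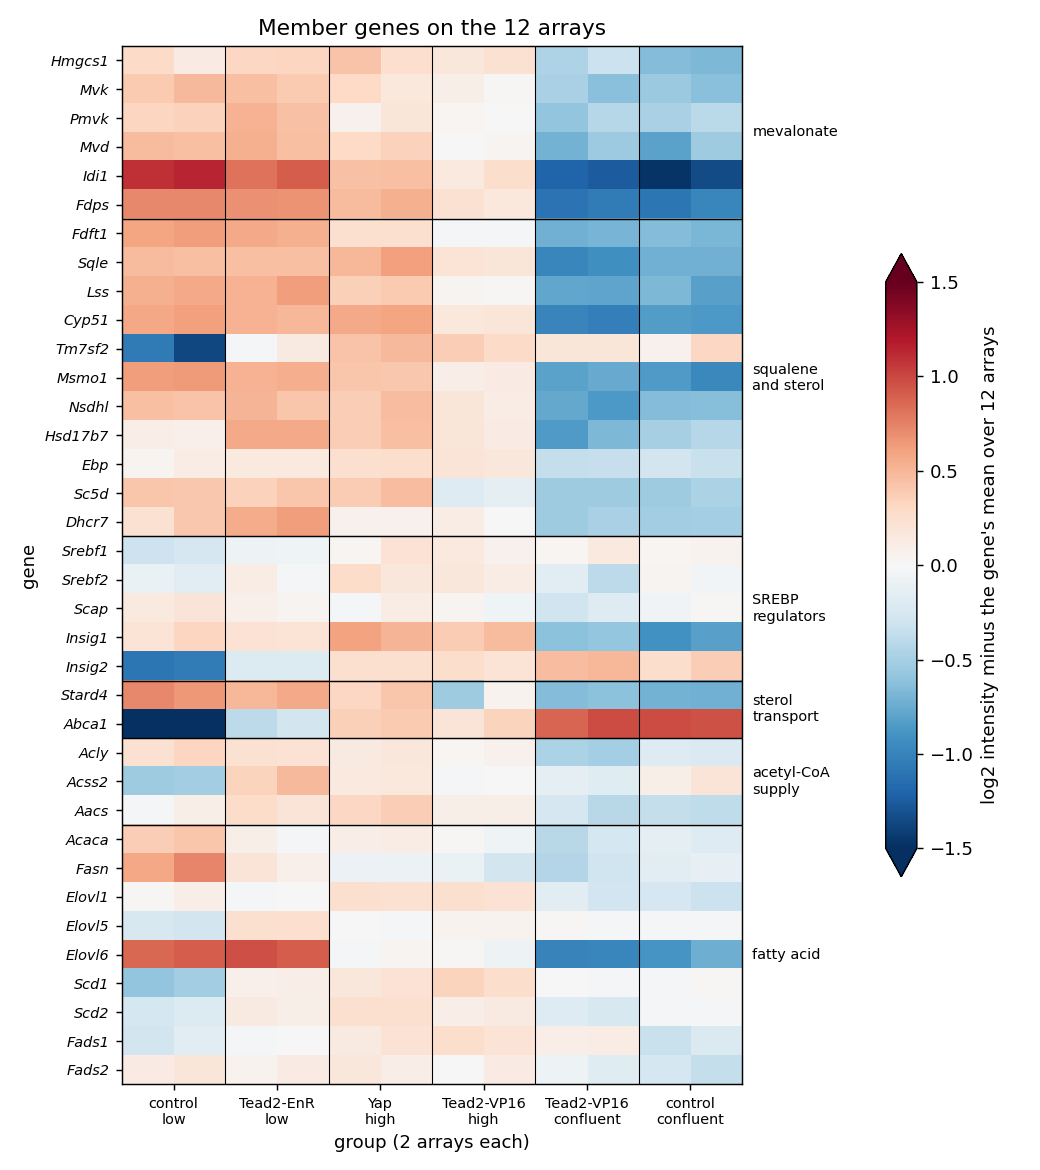
Each cell is the log2 intensity of 1 of the 36 measured genes on 1 of the 12 arrays minus that gene's mean over all arrays (colour scale from -1.5 to 1.5; values beyond it take the end colour), with arrays in columns by group and genes in rows by role. Sterol genes other than Tm7sf2 are blue in the 2 completely confluent groups, and Abca1, Insig2 and Tm7sf2 are lowest in low-density control.

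In the squalene and sterol steps 10 of 11 genes fell. Cyp51, the sterol demethylase, read 11.58 and 11.62 in low-density control, 11.52 and 11.50 with Tead2-EnR, 11.57 and 11.59 with Yap, 11.16 and 11.18 with Tead2-VP16 at high density, 10.01 and 9.97 with Tead2-VP16 at confluency and 10.16 and 10.14 in confluent control. The Yap arrays overlapped those of low-density control, and the 2 confluent groups lay lowest and apart from each other. The density change was -1.45 (SE 0.048, 2.72-fold, limma adjusted p = 6.4e-09), and all 3 of its probe sets were called.

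Msmo1, the methylsterol oxidase, read 11.25 and 11.26 in low-density control, 11.14 and 11.16 with Tead2-EnR, 11.04 and 11.02 with Yap, 10.72 and 10.74 with Tead2-VP16 at high density, 9.82 and 9.87 with Tead2-VP16 at confluency and 9.77 and 9.65 in confluent control. No groups overlapped. Its fall was 2.92-fold (-1.55, SE 0.055, limma adjusted p = 9.7e-09), while its other probe set was at -0.16 and not called.

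Fdft1, which makes squalene, was at -1.28, Sqle, the epoxidase that follows, at -1.18, and Lss, which closes the ring to lanosterol, at -1.30. For Fdft1 2 of 4 probe sets and for Lss 2 of 3 were called, and the mean over probe sets gave -0.61 and -0.67. Nsdhl, a dehydrogenase of demethylation, was at -1.08, Sc5d, a desaturase, at -0.91 and Dhcr7, a reductase of the last steps, at -0.83. The smallest falls were those of Hsd17b7, a ketosterol reductase, at -0.56 and of Ebp, the isomerase of a ring double bond, at -0.38 (adjusted p = 0.00011).

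Tm7sf2, a sterol reductase acting after Cyp51, was the sterol gene that rose. It read 6.20 and 5.89 in low-density control, 7.24 and 7.39 with Tead2-EnR, 7.69 and 7.74 with Yap, 7.62 and 7.54 with Tead2-VP16 at high density, 7.44 and 7.44 with Tead2-VP16 at confluency and 7.32 and 7.57 in confluent control. Low-density control was apart from the other 5 groups, by more than 1 log2 unit at its nearest array. The rise was 2.64-fold (1.40, SE 0.11, limma adjusted p = 2.4e-06), from a level below the median gene; this gene has 1 probe set.

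Sequences upstream of the start sites were available for 29 of the 36 measured genes (38 promoters, RefSeq, GRCm38.p6), and the 250 bases before each start were searched on both strands. The others were Fdps, Fdft1, Sqle, Stard4, Scd1, Scd2 and Fads1. A CCAAT box (ATTGG), the element bound by NF-Y, stood in at least 1 promoter of each of the 14 sterol genes (14 of their 17 promoters, 82.4%), in 40.0% of the 10 fatty acid promoters and in 45.5% of the 11 promoters of regulators and transporters, against 33.8% of all 32851 promoters and 35.4% of those of protein-coding genes. The Sp1 box (GGGCGG) stood in 82.4% of the sterol promoters, 50% of the fatty acid promoters and 72.7% of those of regulators and transporters. It stood in 32.7% of all promoters and in 42.6% of promoters of protein-coding genes. The core of the Tead site (GGAATG) stood in 1 of the 38 member promoters (2.63%), in 12.6% of all promoters and in 11.7% of those of protein-coding genes. The E-box CACGTG stood in 18.4% of member promoters, in 6.02% of all and in 6.63% of those of protein-coding genes. A sterol response element core, CACNCCAC, stood in 5.26% of member promoters, in 5.29% of all and in 5.3% of those of protein-coding genes. Matches of different motifs were counted separately also where they overlap, and a match is a description of these windows, not a shown site.

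The windows of Idi1 (chr13:8885356-8885605, plus strand), Mvk (chr5:114444019-114444268, plus strand) and Hmgcs1 (chr13:119690101-119690350, plus strand) are shown for sterol genes that fell with density, that of Insig1 (chr5:28071162-28071411, plus strand) for the regulator that moved with them, those of Abca1 (chr4:53159896-53160145, minus strand) and Acss2 (chr2:155517793-155518042, plus strand) for genes that rose. They read from 5′ to 3′ in the direction of the gene and end at the base before the start; capitals mark matches, on either strand, to the CCAAT box, the Tead core and the sterol response element core.
Idi1: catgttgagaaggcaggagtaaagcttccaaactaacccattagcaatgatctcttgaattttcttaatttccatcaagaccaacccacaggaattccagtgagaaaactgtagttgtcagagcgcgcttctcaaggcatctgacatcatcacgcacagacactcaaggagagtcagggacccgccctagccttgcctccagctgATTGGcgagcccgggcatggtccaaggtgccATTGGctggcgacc
Mvk: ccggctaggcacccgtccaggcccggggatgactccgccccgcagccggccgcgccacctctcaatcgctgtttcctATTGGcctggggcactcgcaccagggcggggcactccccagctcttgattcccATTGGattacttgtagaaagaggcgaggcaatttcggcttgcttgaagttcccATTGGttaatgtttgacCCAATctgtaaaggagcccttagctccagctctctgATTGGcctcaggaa
Hmgcs1: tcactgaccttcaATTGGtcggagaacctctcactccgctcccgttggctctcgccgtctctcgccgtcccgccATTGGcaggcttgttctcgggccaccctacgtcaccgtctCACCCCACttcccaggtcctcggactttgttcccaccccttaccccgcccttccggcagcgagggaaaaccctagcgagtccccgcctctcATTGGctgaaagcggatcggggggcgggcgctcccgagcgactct
Insig1: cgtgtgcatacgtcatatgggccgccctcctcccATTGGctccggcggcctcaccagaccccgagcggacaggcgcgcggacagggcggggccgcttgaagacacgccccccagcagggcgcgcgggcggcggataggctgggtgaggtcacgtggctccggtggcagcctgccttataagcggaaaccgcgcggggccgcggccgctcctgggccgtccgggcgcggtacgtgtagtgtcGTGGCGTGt
Abca1: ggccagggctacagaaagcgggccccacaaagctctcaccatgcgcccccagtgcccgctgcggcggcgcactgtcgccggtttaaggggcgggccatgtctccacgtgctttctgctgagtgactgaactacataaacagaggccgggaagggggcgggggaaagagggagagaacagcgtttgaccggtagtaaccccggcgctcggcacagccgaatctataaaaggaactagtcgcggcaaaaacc
Acss2: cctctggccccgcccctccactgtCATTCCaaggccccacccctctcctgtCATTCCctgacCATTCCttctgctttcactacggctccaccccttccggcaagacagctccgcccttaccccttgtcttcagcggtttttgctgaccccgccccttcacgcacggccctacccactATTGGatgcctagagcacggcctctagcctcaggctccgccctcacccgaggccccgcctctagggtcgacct
Mvk held 5 CCAAT boxes, the most in any member window, Hmgcs1 3, Idi1 2 and Insig1 1, and Abca1 held 0. Hmgcs1 and Insig1 were the members with the sterol response element core in these windows, and Acss2 was the member with the Tead core, at 3 places. The windows shown thus include the extremes and are not typical of the members.

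Regulators and transporters divided in the same step, with 3 genes higher and 3 lower. Insig1, an SREBP target whose protein retains Scap, went with the sterol enzymes. It read 9.92 and 10.04 in low-density control, 9.94 and 9.92 with Tead2-EnR, 10.32 and 10.23 with Yap, 10.10 and 10.19 with Tead2-VP16 at high density, 9.10 and 9.14 with Tead2-VP16 at confluency and 8.81 and 8.90 in confluent control. The 2 confluent groups lay lowest, apart from each other and from the rest, and the density change was -1.12 (SE 0.065, 2.18-fold, limma adjusted p = 2.6e-07).

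Insig2, the paralogue with the same function whose gene is less dependent on SREBP, went the other way. It read 8.59 and 8.63 in low-density control, 9.47 and 9.47 with Tead2-EnR, 9.92 and 9.92 with Yap, 9.94 and 9.88 with Tead2-VP16 at high density, 10.14 and 10.18 with Tead2-VP16 at confluency and 9.94 and 10.04 in confluent control. Low-density control stood lowest and Tead2-EnR next, both apart from the other groups. The rise was 2.60-fold (1.38, SE 0.055, limma adjusted p = 1.9e-08) and was called on all 3 probe sets.

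Abca1, the exporter of cholesterol to apolipoproteins and a classical LXR target, had the widest range of all members. It read 4.59 and 4.73 in low-density control, 6.47 and 6.58 with Tead2-EnR, 7.22 and 7.25 with Yap, 7.05 and 7.19 with Tead2-VP16 at high density, 7.73 and 7.84 with Tead2-VP16 at confluency and 7.84 and 7.81 in confluent control. Low-density control was far below every other array, Tead2-EnR was next, and only the 2 confluent groups overlapped. Its difference with density was 3.16 (SE 0.075, limma adjusted p = 8.7e-10). The low-density level lies near that of Fabp4, an adipocyte gene with a mean of 4.73 there, and without detection calls it is not known to be above background, so no fold is given for changes from it. The mean of its 3 probe sets, all of which were called, gave 2.23.

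Stard4, which carries cholesterol between membranes, fell with density. It read 10.06 and 9.99 in low-density control, 9.83 and 9.91 with Tead2-EnR, 9.65 and 9.75 with Yap, 8.81 and 9.39 with Tead2-VP16 at high density, 8.69 and 8.72 with Tead2-VP16 at confluency and 8.63 and 8.62 in confluent control. The 2 arrays of Tead2-VP16 at high density differed from each other more than any other pair of this gene, and the lower of them lay near the confluent arrays. The density change was -1.40 (SE 0.15, 2.64-fold, limma adjusted p = 1.8e-05).

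The SREBP genes and Scap moved little beside their targets. Srebf1, which encodes the SREBP-1 proteins, read 8.77 and 8.83 in low-density control, 9.01 and 9.02 with Tead2-EnR, 9.12 and 9.30 with Yap, 9.23 and 9.15 with Tead2-VP16 at high density, 9.11 and 9.23 with Tead2-VP16 at confluency and 9.11 and 9.14 in confluent control. Low-density control and Tead2-EnR were apart from the others, which overlapped, and the density change was 0.32 (SE 0.072, limma adjusted p = 0.0037).

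Srebf2, which encodes the SREBP-2 protein that chiefly drives sterol synthesis, read 10.05 and 9.99 in low-density control, 10.26 and 10.12 with Tead2-EnR, 10.42 and 10.32 with Yap, 10.31 and 10.26 with Tead2-VP16 at high density, 9.98 and 9.75 with Tead2-VP16 at confluency and 10.19 and 10.10 in confluent control. Its density change of 0.13 did not pass the test (95% interval -0.06 to 0.32, limma adjusted p = 0.26). Its other probe set was at -0.16 and was not called either.

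Scap, the escort protein, read 9.68 and 9.73 in low-density control, 9.61 and 9.58 with Tead2-EnR, 9.51 and 9.65 with Yap, 9.58 and 9.47 with Tead2-VP16 at high density, 9.24 and 9.34 with Tead2-VP16 at confluency and 9.48 and 9.55 in confluent control. It was at -0.20 in the density step (SE 0.069, limma adjusted p = 0.038), and this call was lost without any 1 of the 4 arrays, where the adjusted p lay between 0.057 and 0.18. Its other probe set was at 0.19, the mean of both was at 0 (limma adjusted p = 0.98), and repeated quantile normalization gave -0.14 (limma adjusted p = 0.12).

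**Figure D2:**
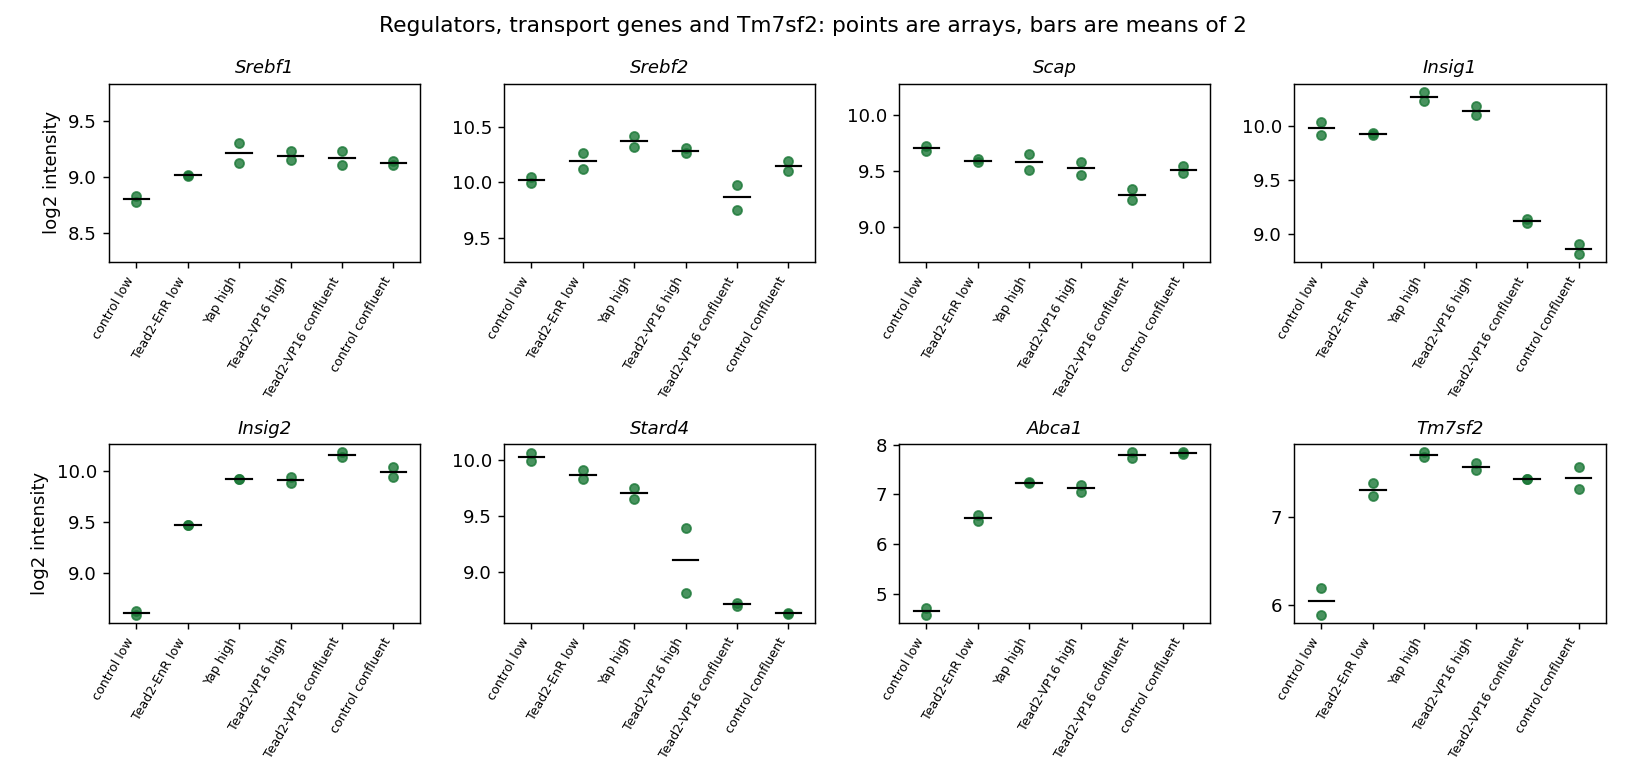
Log2 intensity of Srebf1, Srebf2, Scap, Insig1, Insig2, Stard4, Abca1 and Tm7sf2 in the 6 groups; points are arrays, bars are means of 2, and each panel has its own axis range. Insig1 and Stard4 are lowest in the 2 completely confluent groups, while Insig2, Abca1 and Tm7sf2 are lowest in low-density control.

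The fatty acid branch was mixed in the density step: of 12 genes 7 fell and 4 rose, with a median of -0.37. Elovl6, the elongase of palmitate, fell most. It read 10.38 and 10.42 in low-density control, 10.48 and 10.42 with Tead2-EnR, 9.50 and 9.56 with Yap, 9.54 and 9.44 with Tead2-VP16 at high density, 8.52 and 8.54 with Tead2-VP16 at confluency and 8.63 and 8.78 in confluent control. The 2 low-density groups touched at the top, the 2 high-density groups overlapped in the middle and the confluent groups lay lowest. Its fall was 3.24-fold (-1.70, SE 0.065, limma adjusted p = 1.6e-08) and was called on 2 of 3 probe sets, whose mean gave -1.15.

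Fasn, the fatty acid synthase, read 10.74 and 10.89 in low-density control, 10.35 and 10.24 with Tead2-EnR, 10.07 and 10.08 with Yap, 10.06 and 9.89 with Tead2-VP16 at high density, 9.72 and 9.86 with Tead2-VP16 at confluency and 10.01 and 10.04 in confluent control. Low-density control stood highest and Tead2-EnR next, and the high-density and confluent groups lay close together below them. The density change was -0.79 (SE 0.081, 1.72-fold, limma adjusted p = 1.7e-05).

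Acss2, the synthetase that makes acetyl-CoA from acetate, rose. It read 7.97 and 7.98 in low-density control, 8.83 and 8.99 with Tead2-EnR, 8.65 and 8.66 with Yap, 8.47 and 8.49 with Tead2-VP16 at high density, 8.36 and 8.32 with Tead2-VP16 at confluency and 8.59 and 8.70 in confluent control. Low-density control was lowest and Tead2-EnR highest, and the Yap arrays lay within the range of confluent control. The density change was 0.67 (SE 0.065, 1.59-fold, limma adjusted p = 1.1e-05).

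Scd1, the stearoyl-CoA desaturase, read 10.84 and 10.91 in low-density control, 11.51 and 11.53 with Tead2-EnR, 11.61 and 11.65 with Yap, 11.77 and 11.70 with Tead2-VP16 at high density, 11.43 and 11.42 with Tead2-VP16 at confluency and 11.40 and 11.45 in confluent control. Low-density control was apart from all other arrays and the density change was 0.55 (SE 0.053, 1.46-fold, limma adjusted p = 9.8e-06), called on 1 of 2 probe sets. The elongase Elovl5 rose by 0.23. Scd2, a paralogue of Scd1, was at 0.21, called on 1 of 3 probe sets and not with their mean (0.17, limma adjusted p = 0.080).

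The other falls of this branch were smaller than that of Fasn. Acaca, the carboxylase that makes malonyl-CoA, was at -0.56, and Acly, which releases acetyl-CoA from citrate, at -0.48. Fads2, a desaturase of polyunsaturated fatty acids, was at -0.46, Aacs, which activates acetoacetate, at -0.40 and the elongase Elovl1 at -0.35. Fads1, the companion desaturase of Fads2, was at -0.05 and did not pass the test (limma adjusted p = 0.58).

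Some measures of the arrays and of other cell types moved with density as well, and their part in these results was not tested. The mean of 24 poly-A spike-in probe sets went from 8.19 ± 0.093 in low-density control to 8.58 ± 0.12 in confluent control (log2, SD, n = 2). For the transferrin receptor control, the excess of the 3′ over the 5′ probe set was 0.98 ± 0.052 at low density and 1.30 ± 0.19 at confluency (same scale and n). Fibroblast markers, 5 of 6 of which rose and 1 fell, had summed intensities of 48726 to 49728 in low-density control and 79326 to 80174 in confluent control. Of 8 adipocyte markers 6 were measured, of which 1 rose and 1 fell, and their sum went from 2162 to 2180 in low-density control to 6582 to 6891 in confluent control. That sum was mostly Lpl, the lipoprotein lipase (11.02 to 12.70); the defining markers Adipoq and Fabp4 were between 2.89 and 4.73 in all groups, and Plin1 was not analysed here.

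Further genes of lipid metabolism were called in both directions in this step. So were genes at large, of which 26.1% were higher and 22.8% lower. The lists were drawn up by function, with earlier results of these data known. Of 8 genes of the prenyl and ubiquinone branch 4 rose and 3 fell, with Pdss2, a subunit of the synthase of the ubiquinone side chain, at -0.87. Among 9 genes that process or degrade SREBP and its partners 4 rose and 5 fell; Mbtps1, the protease that makes the initial cut, was at 0.76 and Ube2g2, a ubiquitin-conjugating enzyme, at -0.81. Of 8 genes of sterol uptake, transport and LXR 5 rose and 1 fell. Mylip, an LXR-induced ubiquitin ligase for lipoprotein receptors, rose by 2.05 (SE 0.066, limma adjusted p = 5e-09), and Scarb1, a lipoprotein receptor, was at -1.24. In 17 genes of fatty acid activation, NADPH supply and glycerolipid synthesis 3 rose and 7 fell, led by the acyl-CoA synthetases Acsl5 (-1.23) and Acsl3 (-0.96) and by Hsd17b12, a reductase of fatty acid elongation (-0.84).

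The repressor fusion was compared with control at low density, labelled 30% confluency in both groups. For Tead2-EnR this was 30% of the cells' own confluency, so the density itself may differ from that of control. If it does, vector and density cannot be told apart here. Most sterol genes did not pass the test with Tead2-EnR: of 17, 3 were higher, 1 lower and 13 not called, with a median of 0.03, whereas 38.4% of all genes were called (20.3% higher, 18.1% lower). Of all 36 members 12 were higher and 3 lower. Of the 6 sterol genes with the largest falls in confluent cells, 5 did not pass the test with Tead2-EnR: Fdps was at -0.04 (95% interval -0.17 to 0.08), Msmo1 at -0.11 (-0.23 to 0.02), Cyp51 at -0.09 (-0.20 to 0.02), Lss at 0.03 (-0.12 to 0.17) and Fdft1 at -0.05 (-0.16 to 0.05). A dimmer probe set of Cyp51, 1 of 3, was called lower at -0.42. Idi1 was lower, at -0.26 (limma adjusted p = 0.011), a call lost without the second control array or the first Tead2-EnR array (limma adjusted p of 0.061 and 0.077).

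Genes that stood apart from the falling enzymes in the density step were among those higher with Tead2-EnR. So were Hsd17b7 and Dhcr7, which fell in the density step. Both comparisons share the low-density control arrays, so their values are given side by side only. Abca1 was at 1.86 with Tead2-EnR (SE 0.075, limma adjusted p = 1.1e-07) and at 3.16 with density. Tm7sf2 was at 1.27 (2.41-fold, SE 0.11, limma adjusted p = 1.3e-05) and at 1.40 with density. Insig2 was at 0.86 and 1.38, and all 3 of its probe sets were called in each. Hsd17b7 was at 0.48 with Tead2-EnR (limma adjusted p = 0.00027) and at -0.56 with density, and Dhcr7 at 0.29 and -0.83. The call of Dhcr7 was lost without the first control array or the second Tead2-EnR array (limma adjusted p of 0.056 and 0.053).

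The fatty acid branch was called in 8 of 12 genes with Tead2-EnR, 6 higher and 2 lower, with a median of 0.13. Acss2 was 1.92-fold higher (0.94, SE 0.065, limma adjusted p = 2.8e-06), Scd1 was at 0.65, Elovl5 at 0.50 and Scd2 at 0.35. The enzymes that start the chain were lower, Fasn at -0.52 (SE 0.081, limma adjusted p = 0.00058) and Acaca at -0.35. Elovl6, the gene of this branch with the largest fall in confluent control, was at 0.05 (95% interval -0.10 to 0.20). Aacs and Fads1 were called at 0.21 and 0.20, and each call was lost without any 1 of 3 of the 4 arrays (limma adjusted p from 0.065 to 0.22 and from 0.08 to 0.16). For Aacs the mean of its 3 probe sets had the other sign (-0.04, limma adjusted p = 0.61), and 1 of them was called lower at -0.50.

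Of the regulators, Srebf1 was called at 0.22 (limma adjusted p = 0.040), but not without any 1 of the 4 arrays (0.073 to 0.15). Insig1 (-0.05, 95% interval -0.20 to 0.10), Srebf2 (0.17) and Scap (-0.11) did not pass the test, nor did Stard4 (-0.16). Among the further lists Mylip, the LXR-induced ligase, was higher by 1.85 with Tead2-EnR (SE 0.066, limma adjusted p = 5e-08), with 4 of 8 genes of uptake, transport and LXR higher and 0 lower. The prenyl list had 3 higher and 2 lower of 8, the SREBP processing list 4 and 2 of 9, and the fatty acid activation list 4 and 3 of 17. Of all genes 20.3% were higher and 18.1% lower in this comparison, and the fatty acid activation list lay near these shares. The poly-A spike-in mean was 8.55 ± 0.033 with Tead2-EnR against 8.19 ± 0.093 in control (log2, SD, n = 2), while the transferrin receptor difference was 1.12 ± 0.025 against 0.98 ± 0.052. Fibroblast markers were higher in 4 of 6 genes (sums of 55627 to 55971 against 48726 to 49728), and adipocyte markers in 1 of 6 (2675 to 2810 against 2162 to 2180). The macrophage sum was 606 to 639 against 473 to 490. The part of these measures in the results was not tested.

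Cells with Yap or Tead2-VP16 at high density were set against confluent control, the nearest control in density. The vector and the density differ together here and cannot be told apart. Sterol genes were higher in both: 16 of 17 with Yap (median 0.99) and 16 of 17 with Tead2-VP16 (median 0.69), and 0 were lower in either. Over all members 27 were higher and 1 lower with Yap, where 26.1% of all genes were called (11.7% higher, 14.5% lower), and 25 were higher and 1 lower with Tead2-VP16, where 26.9% were called (13.2% higher, 13.7% lower). Both comparisons use the same 2 control arrays, which also enter the density step with the opposite sign, so their values are given side by side only.

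Idi1 was 3.59-fold higher with Yap (1.84, SE 0.066, limma adjusted p = 2e-07) and 3.04-fold higher with Tead2-VP16 (limma adjusted p = 4e-07). Fdps was at 1.54 and 1.22, and at 0.82 and 0.64 with the mean of its probe sets. Cyp51 was at 1.43 and 1.02, Msmo1 at 1.32 and 1.02, and Sqle at 1.28 and 0.92. The other probe set of Msmo1 was called at 0.69 with Yap, but was at -0.02 and not called with Tead2-VP16. The smallest of the called sterol changes were those of Ebp and Pmvk with Yap, both at 0.56, and that of Sc5d with Tead2-VP16, at 0.33. This change of Sc5d was called on 1 of its 3 probe sets. Tm7sf2 was at 0.27 with Yap (95% interval 0.02 to 0.52, limma adjusted p = 0.11) and at 0.14 with Tead2-VP16 (limma adjusted p = 0.45).

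**Figure D3:**
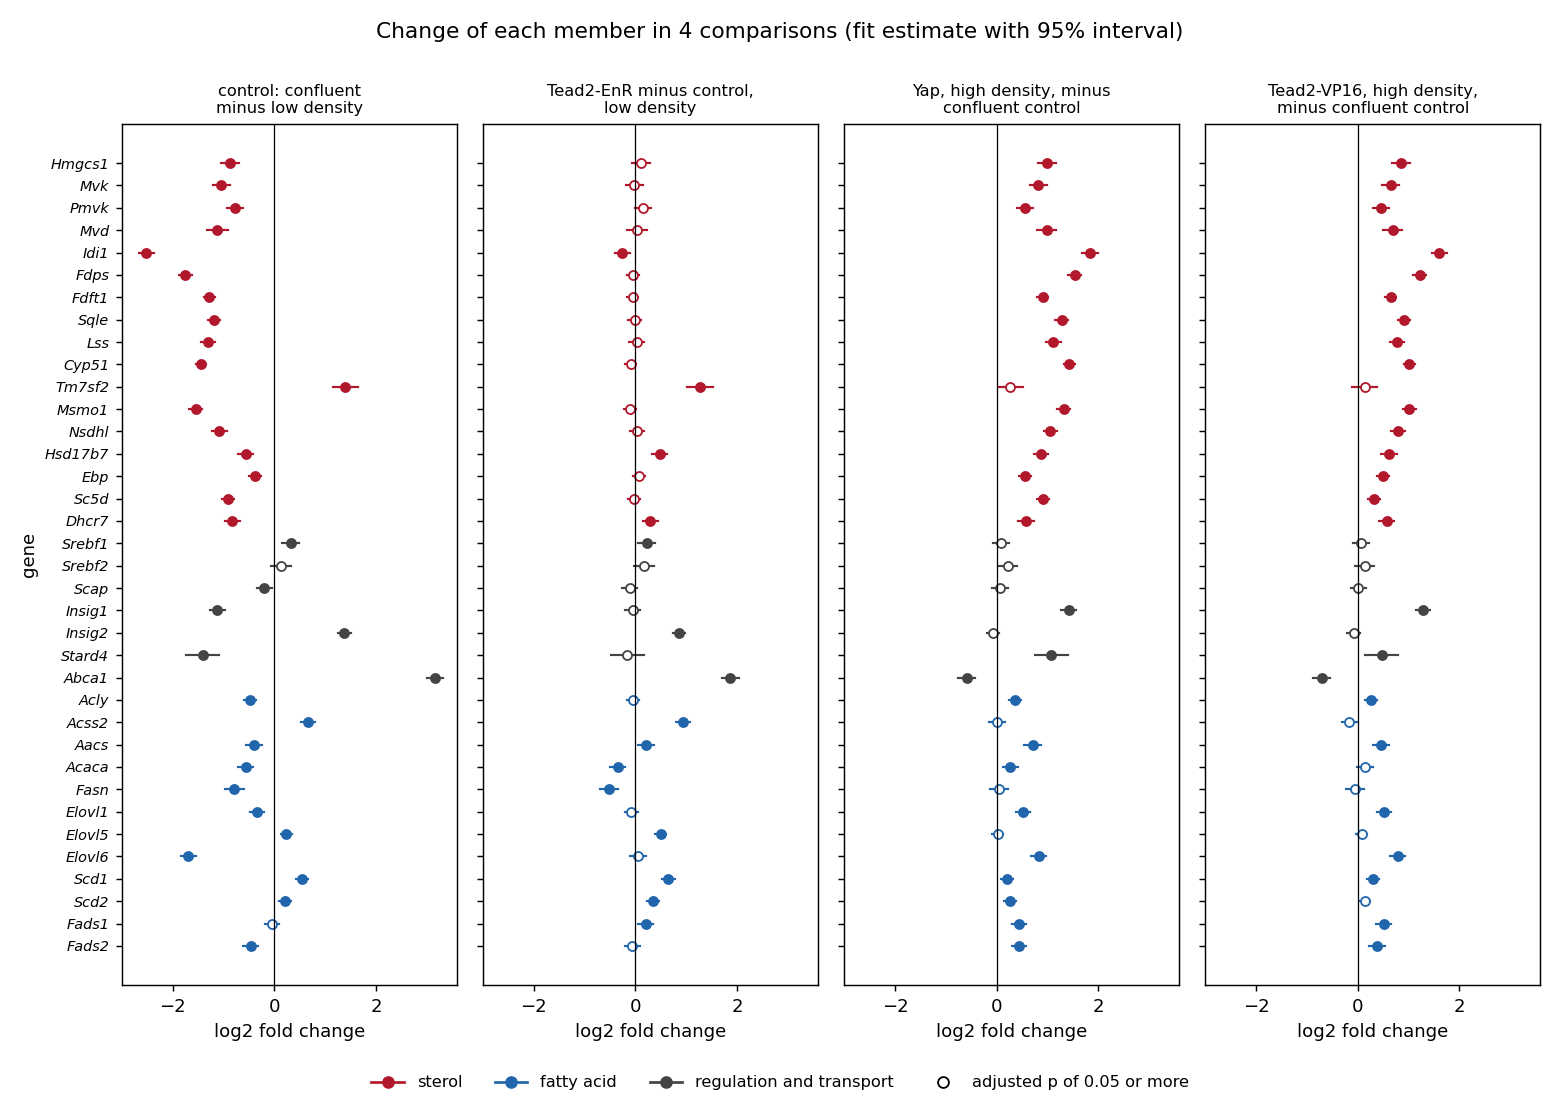
Log2 fold change of each of the 36 measured genes, with 95% intervals from the limma fit, in 4 comparisons: confluent minus low density in control, Tead2-EnR minus control at low density, and each high-density group (Yap, then Tead2-VP16) minus confluent control; open circles did not pass the test. The 16 sterol genes that are left of 0 in the leftmost panel are right of 0 in the 2 panels on the right; the confluent control arrays enter these 3 panels with opposite sign, so part of that opposition follows from the shared arrays. Of the 17 sterol genes, 13 are open in the Tead2-EnR panel.

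Insig1 was 2.67-fold higher with Yap (1.42, SE 0.065, limma adjusted p = 7.3e-07) and at 1.29 with Tead2-VP16, while Insig2 was at -0.07 (95% interval -0.19 to 0.05) and -0.08. Stard4 was at 1.08 with Yap (limma adjusted p = 0.00050). With Tead2-VP16 it was at 0.48, a call lost without the second Tead2-VP16 array or either control array (limma adjusted p from 0.12 to 0.13). Abca1 was the member that was lower, at -0.59 with Yap (limma adjusted p = 0.00034) and at -0.71 with Tead2-VP16. Neither Srebf1 (0.09 and 0.07), Srebf2 (0.22 and 0.14) nor Scap (0.07 and 0.01) passed the test.

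In the fatty acid branch 9 of 12 genes were higher with Yap (median 0.32) and 7 with Tead2-VP16 (median 0.28), and 0 were lower in either. Elovl6 was at 0.83 and 0.79 (limma adjusted p = 2.1e-05 and 2.4e-05), Aacs at 0.71 and 0.46, and Elovl1 at 0.52 and 0.52. Fads1 was at 0.45 and 0.51 and Fads2 at 0.45 and 0.38. For Fads1 1 of 2 probe sets was called in each comparison, and the dimmer of them was at 0.31 and -0.08. All 3 probe sets of Fads2 were called in both. Fasn was at 0.05 with Yap (95% interval -0.13 to 0.23, limma adjusted p = 0.74) and at -0.05 with Tead2-VP16, and Elovl5 (0.02 and 0.08) and Acss2 (0.01 and -0.17) did not pass the test either. The calls of Acaca (0.27) and Scd1 (0.20) with Yap were lost without some of the arrays (limma adjusted p up to 0.085 and 0.11). Fatty acid activation and glycerolipid genes had 7 of 17 higher with Yap and 8 with Tead2-VP16 and 0 lower, led by Acsl3 at 1.03 and 0.92. Of all genes 11.7% were higher with Yap and 13.2% with Tead2-VP16. The other 3 further lists had at most 3 genes called in either direction.

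Of the 6 measured adipocyte markers 0 were higher and 1, Lpl, was lower in each of these comparisons. Their summed intensity was 2985 to 3111 with Yap and 3378 to 3405 with Tead2-VP16 at high density, against 6582 to 6891 in confluent control, and the fibroblast sums were 65938 to 67576 and 66117 to 66406 against 79326 to 80174. The poly-A spike-in means were 8.47 ± 0.091 with Yap and 8.31 ± 0.064 with Tead2-VP16 against 8.58 ± 0.12 (log2, SD, n = 2). Their part in these results was not tested.

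Yap and Tead2-VP16 were then compared directly at the same labelled density. Called genes were few in this comparison, 2.02% of all genes (0.934% higher with Yap, 1.08% lower), and all 7 members that were called were sterol genes with a higher level in Yap cells (median over the 17 sterol genes 0.26, over all genes -0.02). With arrays centred on their medians the share of called genes that were higher with Yap went from 46.3% to 31.3%. Sc5d led with 0.59 (SE 0.053, limma adjusted p = 0.0008), from 9.76 and 9.80 with Tead2-VP16 to 10.33 and 10.41 with Yap. These arrays did not overlap, and the Yap arrays were near those of low-density control (10.36 and 10.35). The Tead2-VP16 arrays were nearer to confluent control (9.42 and 9.47). Of the 3 probe sets of Sc5d 1 was called, and their changes ran from 0.25 to 0.59.

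Cyp51 was at 0.41 (SE 0.048, limma adjusted p = 0.0031), Sqle at 0.36, Lss at 0.35, Fdps at 0.32, Msmo1 at 0.30 and Fdft1 at 0.26. The count rested on small differences: it was 2 to 3 when 1 of the 4 arrays was left out, 1 when only these arrays were fitted, and 13 with a filter on dim genes. Fdps, Fdft1, Lss and Msmo1 lost the call without any 1 of the 4 arrays, and Sqle without 3 of them. Stard4 was at 0.60 (limma adjusted p = 0.076), and no gene of the fatty acid branch (median 0.08), of the regulators or of the further lists was called.

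The density step with Tead2-VP16, from high density to complete confluency, was the remaining comparison within 1 vector. Of 17 sterol genes 16 fell and 0 rose (median -0.69), of 12 fatty acid genes 7 fell and 0 rose (median -0.31), and of the 7 regulators and transporters 3 fell and 2 rose, where 24.5% of all genes were called (12.1% higher, 12.4% lower, median -0.02). Idi1 fell by 1.43 (limma adjusted p = 1.4e-06), Fdps by 1.26, Cyp51 by 1.18 and Sqle by 1.15. The fall of Fdps was 0.74 with the mean of its probe sets. Tm7sf2 was at -0.14 (95% interval -0.39 to 0.11).

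Among the fatty acid genes Elovl6 fell by 0.96 (limma adjusted p = 1.5e-05) and Acly by 0.55, and Fasn was at -0.19 (limma adjusted p = 0.13). Scd1 and Scd2 were at -0.31 and -0.34. Insig1 fell by 1.02 and Srebf2 by 0.42 (limma adjusted p = 0.0058), and Abca1 rose by 0.67 (limma adjusted p = 0.00024). The call of Insig2, at 0.24, was lost without the second array of either group (0.060 at complete confluency and 0.065 at high density), and that of Scap, at -0.23, without 3 of the 4 arrays. Of the 6 adipocyte markers 1, Lpl, was higher, and their sum was 8452 to 8479 at complete confluency against 3378 to 3405 before, and poly-A spike-ins at 8.67 ± 0.22 against 8.31 ± 0.064 (log2, SD, n = 2); their part was not tested. The starting density differs from that of the control step, so the sizes of the 2 steps were not compared.

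**Figure D4:**
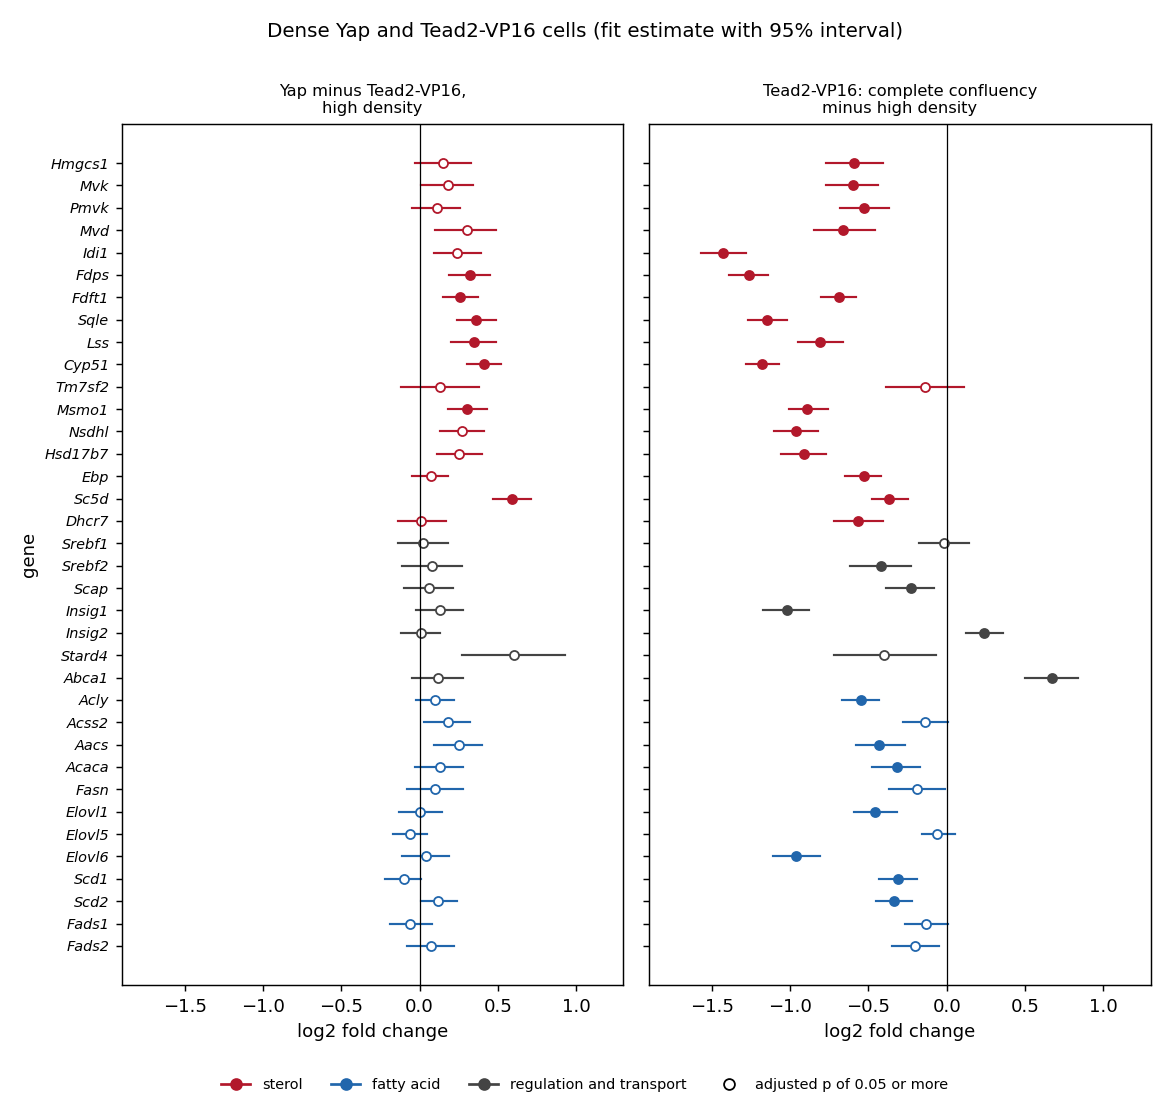
Log2 fold change of each of the 36 measured genes with 95% intervals from the limma fit: Yap minus Tead2-VP16 at high density on the left, and complete confluency minus high density with Tead2-VP16 on the right; open circles did not pass the test. The 7 filled points on the left are sterol genes, and Insig2 and Abca1 are the filled points to the right of 0 on the right.

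At complete confluency Tead2-VP16 and control cells carry the same density label, and 7 members were called. Of 36 genes 2 were higher and 5 lower (median -0.03), where 9.98% of all genes were called (5.06% higher, 4.92% lower). With arrays centred on their medians the share of called genes that were higher went from 50.7% to 68.6%. Fads1 was higher by 0.38 (limma adjusted p = 0.0049), though its other probe set was at -0.02 and the mean of both was not called (0.18, limma adjusted p = 0.13). Insig1 was higher by 0.26, and Acss2 (-0.30), Hsd17b7 (-0.30), Acly (-0.29), Sqle (-0.23) and Scd2 (-0.19) were lower. Insig1, Sqle and Scd2 lost the call without any 1 of the 4 arrays, and the count was 2 to 3 in those fits and 18 with a filter on dim genes. Idi1 was at 0.18 (95% interval 0.03 to 0.33, limma adjusted p = 0.13), Fdps at -0.05 (-0.18 to 0.08) and Abca1 at -0.04 (-0.20 to 0.13).

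Against low-density control the 2 high-density groups stood between the 2 control groups for many sterol genes. With Yap 3 of 17 were higher and 8 lower (median -0.13), where 42.4% of all genes were called (22.2% higher, 20.2% lower). The 8 lower genes were 4 without the second low-density control array or the first Yap array, 5 without the second Yap array and 4 with repeated quantile normalization. With Tead2-VP16 1 was higher and 13 lower (median -0.40), where 42.9% were called (23.4% higher, 19.5% lower). All 8 and all 13 of the lower genes were also called higher than confluent control. So were 16 of the 17 sterol genes in each group, so this adds nothing to those counts. Idi1 was at -0.67 with Yap and -0.91 with Tead2-VP16, and Cyp51 at -0.02 (95% interval -0.13 to 0.09) and -0.43. The other 2 probe sets of Cyp51 were called lower with Yap, at -0.28 and -0.33. For Lss 1 of 3 probe sets was called higher with Yap, and their changes ran from -0.18 to 0.29. With Yap, Lss lost its call without any 1 of the 4 arrays and Pmvk and Dhcr7 without 3 of them, and the probe sets of Msmo1 were called in opposite directions (-0.23 and 0.53).

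Abca1 was at 2.57 with Yap and 2.46 with Tead2-VP16, Tm7sf2 at 1.67 and 1.54, and Insig2 at 1.31 with Yap and close to it with Tead2-VP16. In the fatty acid branch 7 of 12 were higher and 3 lower with Yap, and 6 higher and 4 lower with Tead2-VP16. Scd1 was at 0.75 and 0.86 and Acss2 at 0.68 and 0.50, while Elovl6 was at -0.87 and -0.91 and Fasn at -0.74 and -0.84. Srebf1 was called in both (0.41 and 0.39), and so was Srebf2 (0.35 and 0.27), which lost the call with Tead2-VP16 without any 1 of the 4 arrays and with Yap without the first Yap array. These values use the same low-density arrays as the density step in control.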

How the data were processed

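Total RNA of 12 samples was hybridised to Affymetrix arrays after biotin labelling, per the labels. The authors deposited 1 intensity per probe set and array; RMA is named without a version in the submitters' processing notes. It normalizes arrays by quantiles and yields log2 values, whereas the deposited intensities ran from 3.774 to 25980 and were linear; they were converted to log2 here. Detection calls were not used, and precision is limited by having 2 arrays a group.

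Of 45101 probe sets, 64 were controls, 34958 had 1 gene symbol in the platform annotation, 932 had several and 9211 had none. Entrez identifiers of 34754 matched a RefSeq table (GRCm38.p6), and 0 symbols changed. Each gene was represented by its probe set of highest mean, with no filter. In limma 3.58.1 (R 4.3.3; lmFit, contrasts.fit and eBayes) a mean was fitted to each group over all arrays (6 residual and 3.45 prior degrees of freedom), two-sided, with Benjamini-Hochberg adjustment over all genes in each of 9 comparisons. The script was tested on simulated data. Figures used matplotlib 3.10.9 in Python 3.11.15.

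Values on every array are given for the 5 sterol and 4 fatty acid genes with the widest range of group means and for the 7 regulators and transporters, and for Sc5d, chosen after its values were seen; of the further lists, up to 3 called genes with the smallest adjusted p in a comparison. Members and lists were chosen with earlier results of these data known. Replicate numbers did not pair the arrays: deviations of equally numbered arrays correlated between -0.061 and 0.1 over 15 pairs of groups, and 0 pairs exceeded 0.1. Alternatives were a filter on dim genes, averaging all probe sets of a gene, the replicate block, a robust prior with a variance trend, repeated quantile normalization, centred arrays, log2(intensity + 16), fits on the compared arrays alone, a 2-fold limit without a test, leaving out each array and, chosen after seeing the data, every probe set.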

Additional observations from a re-analysis of the deposited data

How the results depend on the processing

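Over 3879 values of single members under an alternative, 3606 stayed on the same side of the threshold (2221 called in the same direction, 1301 not called with the same sign and 84 not called with the other sign), 101 were called in addition, 169 lost the call and 3 called values changed sign, all when the probe sets of a gene were averaged: Aacs with Tead2-EnR (-0.04), and Lss (0.06) and Msmo1 (0.15) with Yap against low-density control. The counts of called members moved as follows. A 2-fold change with no test gave 16 members in the density step of control against 34 by limma, 2 against 15 for Tead2-EnR, 0 against 7 for Tead2-VP16 at complete confluency, 10 against 28 for Yap and 5 against 26 for Tead2-VP16 over confluent control, 0 against 7 for Yap over Tead2-VP16, 5 against 28 for the density step with Tead2-VP16, and 3 against 26 and 3 against 29 for Yap and Tead2-VP16 over low-density control. For Tead2-VP16 at complete confluency the filter on dim genes gave 18, the variance trend 18, log2(intensity + 16) 11 and the compared arrays alone 1, with 2 to 3 when an array was left out. For Yap over Tead2-VP16 the same settings gave 13, 13, 10 and 1, and 2 to 3. Leaving out an array gave 33 in the density step of control, 11 to 13 for Tead2-EnR, 26 to 27 and 25 to 26 over confluent control, 26 to 27 for the density step with Tead2-VP16, and 19 to 22 and 26 to 27 over low-density control; with 1 array left in a group, that array is assumed to vary like the other groups. With the replicate block, which the check of pairing did not call for, the counts were 34 in the density step, 14 for Tead2-EnR and 29 for Yap over confluent control. Centring arrays moved the median of all genes by at most 0.04 and the share of higher genes among those called for Yap over Tead2-VP16 from 46.3% to 31.3%. Probe sets of dim genes such as Abca1 in low-density control limit the sizes of their changes.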
